A study of Mus musculus with 18 samples.

Results

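Islets of control mice kept on high-fat diet (HFD) were compared with those of control mice kept on chow. The comparison was made up of the 3 arrays titled HFD_wt_flox and the 3 titled Chow_wt_flox, 6 of the 18 arrays of the series. Every array held total RNA of isolated pancreatic islets from C57BL/6 mice, both sexes being used, at 16 weeks of age. HFD mice had eaten a diet with 45% of its energy as fat for 8 weeks, from 8 weeks of age, and chow mice had not. The control mice were floxed littermates, and the labels state neither which gene was floxed nor that Cre was absent. The other 12 arrays came from 2 knockouts, TRAF2loxP/loxP and TRAF3loxP/loxP mice with RIPCre, a transgene in which the promoter of rat insulin drives Cre, again with 3 arrays per diet. TRAF2 and TRAF3 are adaptor proteins that hold back the kinase NIK. The labels do not say that a sample was 1 mouse, so p-values speak of the spread among these samples only.

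Islets are small organs within the exocrine pancreas, made of insulin-secreting beta cells and of alpha, delta and PP cells, with capillaries, pericytes and resident macrophages among them. Tissue-resident macrophages take up debris and bind glycans and immune complexes with lectins and Fc receptors, and the cytokines IL-4 and IL-13 drive a state marked by Retnla and the mannose receptor Mrc1. Mice on a fat-rich diet gain weight and need more insulin, and islets of such mice are known for beta cell enlargement and for changes in their macrophages. Whole islets were measured, so more cells of a type and more RNA per cell cannot be told apart.

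The 6 arrays carried the hormone transcripts of islets, with Ins2 (insulin) at 11.74 to 12.07, Gcg (glucagon) at 12.81 to 13.09 and Sst (somatostatin) at 12.82 to 13.22 on the log2 scale, where array medians lay between 4.80 and 4.92. The exocrine enzyme Ctrb1 was also high, at 13.37 to 13.54, in the arrays of both diets. Sex differed between the diets: by Xist, the X-inactivation transcript, and the Y-linked Eif2s3y, all 3 HFD controls read as female, and of the chow controls number 1 read as female and numbers 2 and 3 as male. Xist was 11.28 in chow control 1, 4.81 and 4.53 in the others on chow, and 9.12 to 9.42 in the HFD controls. Chow control 1 and HFD control 3 had the lowest mean correlation with their own groups across genes (0.9772 and 0.9789), and genes are not independent replicates. Chow control 1 also read lowest for the mean of 12 ductal markers (7.42, against 8.52 and 8.59 in the other chow controls and 7.72 to 8.00 in the HFD controls).

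In HFD islets of control mice 7 of 17 macrophage markers rose, as did 4 contractile genes of smooth muscle, and the nuclear RNAs Neat1 and Malat1 fell. Retnla, a secreted protein of macrophages, had the largest difference of the named genes, 20.5-fold. Of 22180 genes, 196 passed the test (0.884% of all tested; limma, Benjamini-Hochberg adjusted p under 0.05), of which 116 rose (0.523%) and 80 fell (0.361%). Without the adjustment, 1614 genes (7.28%) were higher and 1903 (8.58%) lower at p under 0.05. The median log2 difference over all genes was 0.00523, and among the genes that passed it was 1.41 for those that rose and -0.821 for those that fell. The split depended on scaling: with each array centred on its median, which moved the median of all genes to -0.0767, 124 genes rose and 363 fell. The count also rested on single arrays, with 115, 40 and 89 genes without HFD control 1, 2 and 3 and 603, 19 and 55 without chow control 1, 2 and 3. Whichever of these 6 arrays was left out, 18 genes passed, 13 that rose and 5 that fell.

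**Figure D1:**
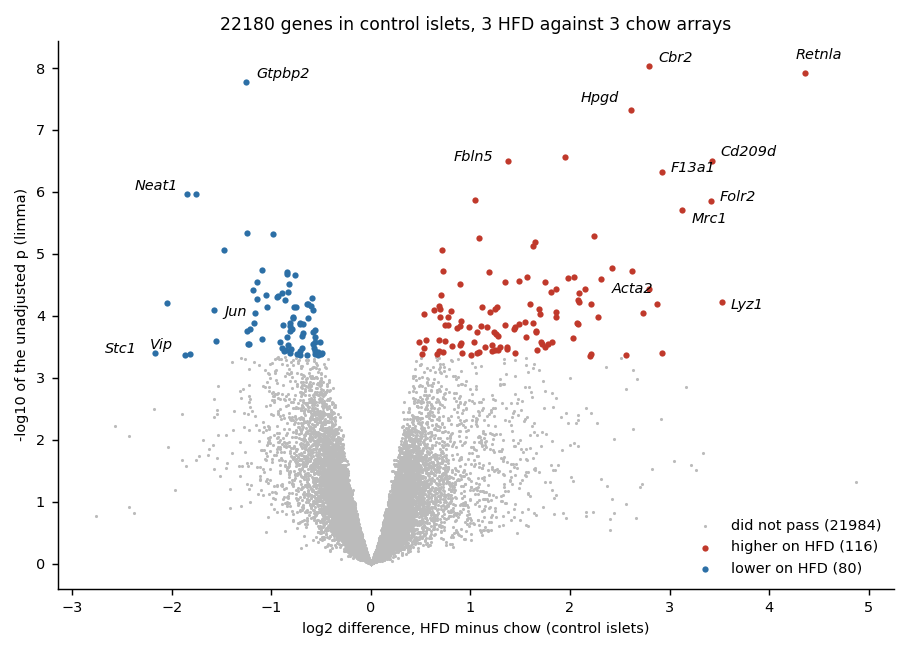
Each point is 1 of 22180 genes; the x axis is the log2 difference between 3 HFD and 3 chow control arrays and the y axis is -log10 of the unadjusted limma p. The 116 genes that rose (red) reach log2 differences of 4.36 (Retnla), and the 80 that fell (blue) reach -2.17 (Stc1).

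Sex could not be separated fully from diet, since no HFD control read as male. The HFD means of the 116 genes that rose and the 80 that fell lay a median of 1.31 and 0.671 on the log2 scale from the female chow array and 1.44 and 0.878 from the male chow arrays, a description only, since these arrays took part in choosing the genes. No sex difference passed for any of the 196 genes in a fit of all 18 arrays that included sex, where 6 genes of 22180 had one. It takes the sex difference as the same in every group, which could not be checked for HFD controls. A sex difference that did not pass is not thereby shown to be absent. That fit left 27 genes with a diet difference (18 higher and 9 lower), all of them among the 196. All 196 kept their direction in it, with a median size of 1.05 against 1.11 without sex and a median SE of 0.223 against 0.209. The same arrays had chosen these genes, so kept directions and sizes are again a description only. With the female arrays alone, where a single chow control is assumed to vary like the other groups, 55 genes passed (6 higher and 49 lower), of which 6 were among the 196.

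The largest rises included several genes known from macrophages. Retnla (probe set 17326069), a secreted resistin-like protein of alternatively activated macrophages, read 4.73, 3.86 and 4.01 in chow controls 1 to 3 and 9.49, 8.62 and 7.57 in HFD controls 1 to 3. All 3 HFD arrays stood far above all 3 chow arrays, by 4.36 ± 0.41 (SE) on the log2 scale (adjusted p = 0.000123). Cd209d, a C-type lectin of the DC-SIGN family, read 4.09, 3.93 and 4.15 on chow against 8.58, 7.50 and 6.35 on HFD, a 10.7-fold rise (adjusted p = 0.00102). Its chow values lay close together, and those on HFD were widely spread but apart from them. Folr2, the folate receptor of tissue macrophages, read 6.67, 6.20 and 6.02 on chow and 10.20, 9.96 and 8.97 on HFD, 10.6-fold higher (adjusted p = 0.0026). Mrc1, the mannose receptor CD206, read 5.47, 4.96 and 5.20 on chow and 8.84, 8.66 and 7.51 on HFD, 8.74-fold higher (adjusted p = 0.00338). In all 4 genes HFD control 3 was the lowest of the HFD arrays and still above every chow array. The chow means of Retnla and Cd209d, 4.20 and 4.06, were under all 6 array medians, as were those of Clec4a3, Sdr9c7, Fcrls, Rgs18 and Cldn5 below, and the size of these rises is therefore uncertain.

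For Retnla and Mrc1, which mark the IL-4-driven state and rose together, the 250 bases before the RefSeq start (build GRCm38.p6) are shown, since that state works through the factor STAT6 and macrophage genes through the factor PU.1. Capitals mark the letters TTCNNNNGAA, the spaced palindrome bound by STAT6, and GAGGAA, the purine box bound by PU.1, searched on both strands.
Retnla, chr16:48842359-48842608, plus strand: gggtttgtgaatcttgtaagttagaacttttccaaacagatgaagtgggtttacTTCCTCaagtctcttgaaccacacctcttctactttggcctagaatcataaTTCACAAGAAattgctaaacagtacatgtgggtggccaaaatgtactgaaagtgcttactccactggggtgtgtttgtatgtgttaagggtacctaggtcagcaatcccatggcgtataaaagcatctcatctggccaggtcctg
Mrc1, chr2:14229164-14229413, plus strand: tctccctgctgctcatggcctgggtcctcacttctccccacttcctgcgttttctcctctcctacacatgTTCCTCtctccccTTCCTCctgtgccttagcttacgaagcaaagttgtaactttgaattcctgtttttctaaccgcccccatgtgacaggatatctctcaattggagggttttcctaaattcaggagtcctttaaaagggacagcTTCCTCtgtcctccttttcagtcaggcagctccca
The Retnla window held 1 match to TTCNNNNGAA, from base -145 to -136, and 1 to GAGGAA on the opposite strand. The Mrc1 window held 3 matches to GAGGAA on the opposite strand, the nearest from base -35 to -30, and none to TTCNNNNGAA. Over all 32851 windows of this length in the table, 5.85% held TTCNNNNGAA and 23.3% GAGGAA. Of the 15 genes with the largest rises, 13 had a window, of which 1 held TTCNNNNGAA and 9 held GAGGAA in at least 1 window. A gene counted here if any of its windows matched, while the percentages are of single windows, so the measures cannot be compared directly. A match is a description of the sequence and not a binding site.

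F13a1, the transglutaminase subunit of clotting factor XIII that macrophages and platelets carry, read 5.72, 6.31 and 5.45 on chow and 9.42, 8.96 and 7.86 on HFD, 7.59-fold higher (adjusted p = 0.00134). Cbr2, a carbonyl reductase, read 5.85, 5.62 and 5.55 on chow and 9.0, 8.51 and 7.90 on HFD, 6.94-fold higher (adjusted p = 0.000123). Hpgd, the dehydrogenase that inactivates prostaglandins, was 6.13-fold higher (2.62 ± 0.27, adjusted p = 0.000261). Hpgd was nearly level across the HFD arrays (8.47, 8.50 and 8.27), and chow control 1 at 6.60 was above the other chow arrays at 5.44 and 5.35. The lysozyme genes Lyz1 and Lyz2 were 11.5-fold and 7.57-fold higher (adjusted p = 0.0231 and 0.0486). They are near-identical neighbours whose transcripts the probes may not tell apart. Lyz1 read 5.23 to 5.87 on chow and 8.60 to 9.46 on HFD. Clec4a3, a C-type lectin receptor, Fcrls, an Fc receptor-like gene of macrophages, Wfdc17, a secreted protein of myeloid cells, and Rgs18, a regulator of G-protein signalling in blood cells, rose 7.32-fold, 6.15-fold, 5.91-fold and 5.34-fold (adjusted p from 0.0161 to 0.0491). The remaining pair of the 15 largest rises had another order among the HFD arrays: Sdr9c7, a short-chain dehydrogenase, and Sostdc1, a secreted inhibitor of BMP and Wnt signals, were highest in HFD control 3. Sdr9c7 read 6.82, 6.71 and 8.22 on HFD against 4.05 to 4.99 on chow, and Sostdc1 8.40, 8.54 and 10.63 against 5.97 to 7.03 (adjusted p = 0.0196 and 0.0249). With sex in the fit, Retnla, Cd209d, Folr2, Mrc1, F13a1, Cbr2, Fcrls and Hpgd passed and the other 7 of these 15 did not (adjusted p from 0.0738 to 0.168). Retnla, Cd209d, Folr2, Mrc1, F13a1, Cbr2 and Hpgd passed whichever control array was left out.

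**Figure D2:**
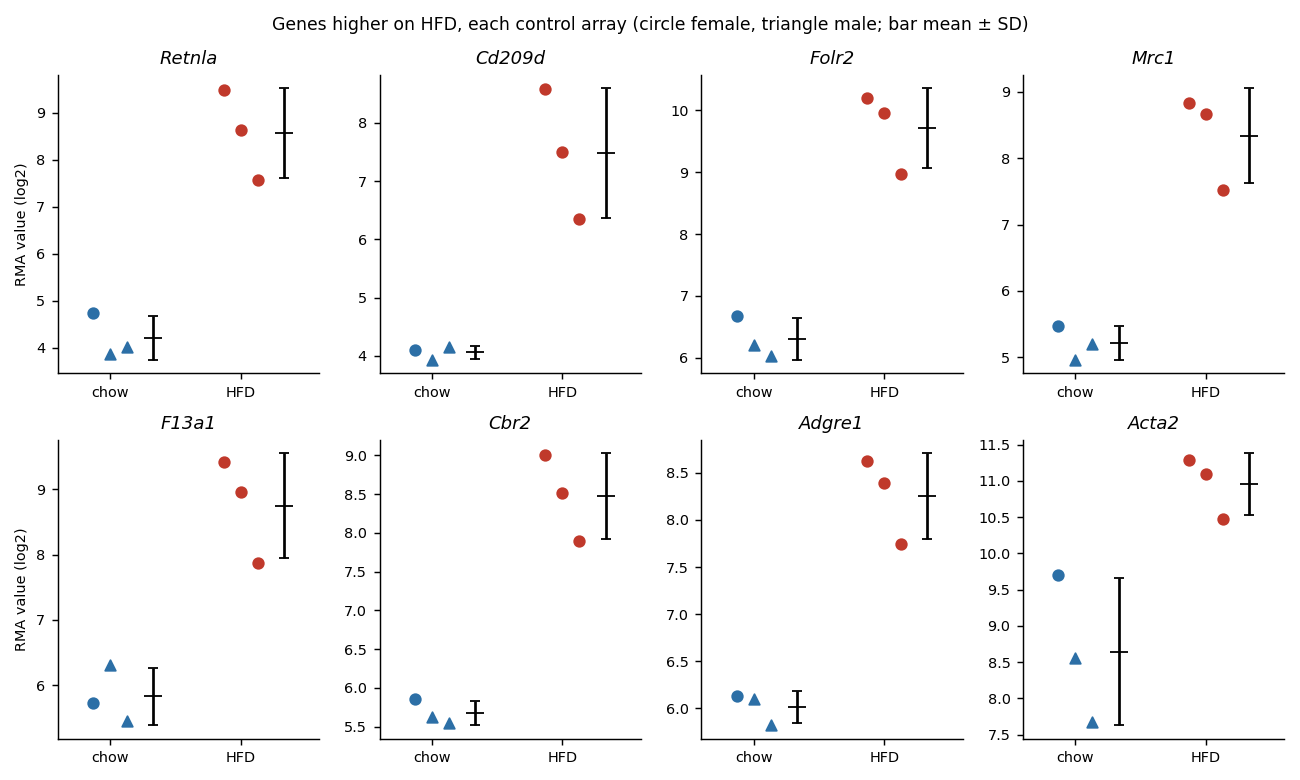
RMA values on the log2 scale (y axis) of 8 genes that rose, in the 3 chow and 3 HFD control arrays from number 1 on the left to number 3; circles read as female, triangles as male, and the black bar is the mean ± SD of 3 arrays. In each panel the 3 HFD arrays lie above the 3 chow arrays, and HFD control 3 is the lowest of the HFD arrays.

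As a group, 7 of the 17 measured macrophage and myeloid markers rose and none fell (limma, adjusted p under 0.05), against 0.523% and 0.361% of all genes. The markers had a median log2 difference of 1.51 against 0.00523 over all genes. The lists here and below were chosen with earlier results of these data known, so counts set against all genes are descriptions only. At an unadjusted p under 0.05, 14 were higher and 0 lower, against 7.28% and 8.58% of all genes. Besides Mrc1 and Lyz2, the F4/80 gene Adgre1 rose 4.72-fold, from 6.12, 6.10 and 5.82 on chow to 8.62, 8.39 and 7.74 on HFD (adjusted p = 0.0071). Csf1r, the receptor of the growth factor CSF1 on which tissue macrophages depend, rose 3.95-fold, from 6.99, 6.85 and 6.52 to 9.24, 8.95 and 8.11 (adjusted p = 0.0168). The groups lay apart in both, with HFD control 3 the lowest on HFD. Cd14, the co-receptor for endotoxin, was the lowest of the list at -0.48 ± 0.52 (adjusted p = 0.71). The neutrophil genes S100a8 and S100a9 and the dendritic cell integrin Itgax did not pass. The mean of all 17 markers was 5.51, 5.68 and 5.59 in chow controls 1 to 3 and 7.30, 7.19 and 6.53 in HFD controls 1 to 3. Only 2 markers passed without HFD control 2, chow control 2 or chow control 3, 4 without HFD control 1, 2 with sex in the fit and 0 with the female arrays alone.

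Further myeloid genes were among the 116, named here after their values were seen. They were the scavenger receptor Cd163 (log2 difference 1.81), the complement component C1qb (1.66) and the complement receptor Vsig4 (2.09). The lectins Cd209g (2.03), Mgl2 (1.49) and Clec10a (0.92), the signalling adaptor Tyrobp (1.86), the chemokine Ccl24 (1.71) and the gelatinase Mmp9 (2.07) were there too. Vsig4 was nearly constant on chow, at 3.52, 3.42 and 3.49, and read 5.87, 6.03 and 4.80 on HFD. Cpa3, a mast cell protease, rose from 3.72, 3.82 and 4.39 to 5.83, 5.86 and 5.20 (1.65 ± 0.34, adjusted p = 0.0329). The chow means of Cd163, Vsig4, Cd209g, Mgl2 and Cpa3 were under all 6 array medians, as were both means of Clec10a, so the size of these rises is uncertain too. Arg1 and Chil3, 2 other textbook genes of alternative activation, also looked up after the fact, did not pass (0.56 ± 0.44 and 0.63 ± 0.32, adjusted p = 0.581 and 0.357), and their chow and HFD arrays overlapped.

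No lymphocyte or plasma cell marker passed (limma, 0 of 15; 2 higher at an unadjusted p under 0.05, as were 7.28% of all genes). All 15 had a difference above 0 (50.9% of all genes), and in 11 every HFD array lay above every chow array, as in 9.76% of all genes. The widest of them, Jchain, which joins secreted antibodies of plasma cells, read 7.11, 6.71 and 6.88 on chow and 10.45, 10.30 and 9.58 on HFD, a difference of 3.21 ± 1.30 (adjusted p = 0.24). The T cell gene Cd3e differed by 0.83 ± 0.90 (adjusted p = 0.718). The spread that the fit pools over all 6 groups is wide for these genes. Of 16 MHC and antigen processing genes none passed (4 higher and 1 lower at an unadjusted p under 0.05, against 7.28% and 8.58% of all genes). Every HFD array was above every chow array for 6 of the 16, the class II genes H2-DMa, H2-Aa, H2-Ab1 and H2-Eb1 and the proteasome genes Psmb8 and Psme1, and below every chow array for 1, the proteasome activator Psme2 (-0.35 ± 0.16, adjusted p = 0.286), against 9.76% and 9.42% of all genes. H2-DMa had the highest difference (1.32 ± 0.45, adjusted p = 0.169). The class I gene H2-K1 differed by 0.01 ± 0.17.

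Contractile genes of smooth muscle and pericytes rose. Of 15 stellate, fibroblast, pericyte and smooth muscle markers, 4 rose (against 0.523% of all genes) and none fell, with a median log2 difference of 0.99. All 4 were contractile genes. Acta2, smooth muscle actin, read 9.70, 8.55 and 7.68 on chow and 11.29, 11.10 and 10.48 on HFD, 4.96-fold higher (adjusted p = 0.017). The chow arrays were widely spread, and the female one was the highest of them. Myh11, smooth muscle myosin, read 6.80, 6.67 and 6.08 on chow and 8.62, 8.43 and 7.45 on HFD, 3.14-fold higher (adjusted p = 0.00786). The actin-binding genes Tagln and Cnn1 rose 2.96-fold and 2.80-fold (adjusted p = 0.0168 and 0.0174). The fibroblast genes Pdgfra, Col1a1, Col3a1 and Dcn and the pericyte genes Rgs5 and Pdgfrb did not pass, with log2 differences from 0.04 (Rgs5) to 1.42 (Dcn). The mean of the 15 markers was 6.74, 6.38 and 6.32 on chow and 7.63, 8.02 and 6.77 on HFD, so that HFD control 3 was only just above chow control 1. Only 1 marker of this list passed without HFD control 2, chow control 2 or chow control 3, and 2 with sex in the fit, and 0 passed when only the 6 arrays compared were fitted or the female arrays alone. Fbln5, an elastic fibre protein, and Itga8, an integrin of smooth muscle and mesangial cells, named after their values were seen, rose by 1.38 ± 0.16 and 1.05 ± 0.14, the latter from a chow mean under all 6 array medians, and were among the 18 genes that passed whichever array was left out.

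Among 26 collagen and matrix genes none passed (5 higher and 1 lower at an unadjusted p under 0.05, against 7.28% and 8.58% of all genes), and 22 had a difference above 0 (50.9% of all genes), with a median of 0.369. Fn1, fibronectin, had the largest difference of that list, at 9.47, 9.67 and 8.16 on HFD against 6.68, 6.16 and 5.73 on chow (2.91 ± 0.89, adjusted p = 0.12). Thbs1, thrombospondin, had the lowest, -2.18 ± 0.62 (adjusted p = 0.103). The endothelial markers had a median of -0.119, and 1 of 14 rose, against 0.523% of all genes. Cldn5, a tight junction protein of vessels, rose 2.54-fold from 3.91, 4.56 and 4.59 to 5.83, 5.91 and 5.34 (adjusted p = 0.0174). It did not pass with sex in the fit (adjusted p = 0.0771). The median of 16 acinar markers was 0.238, none passed (also none at an unadjusted p under 0.05), and Ctrc was the highest at 1.44 ± 0.90. All 16 had a difference above 0 (50.9% of all genes). Their mean was 12.25, 12.61 and 12.90 on chow and 12.79, 12.85 and 13.09 on HFD, so that the groups overlapped. None of 12 ductal markers passed (4 lower at an unadjusted p under 0.05, against 8.58%), and their median was -0.407.

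Of the genes of lipid handling, Cd36 and Fabp4 rose. Cd36, the fatty acid transporter and scavenger receptor of macrophages, endothelium and muscle, read 7.08, 7.40 and 7.29 on chow and 9.31, 9.43 and 9.29 on HFD, 4.25-fold higher (adjusted p = 0.02). The values of each diet lay close together and the groups were far apart. It was the 1 gene that rose among 33 genes of fatty acid oxidation, lipid droplets and PPAR targets, against 0.523% of all genes. The list had a median of 0.264. Cd36 did not pass with sex in the fit, and it passed in 2 of the 6 fits that left out a control array. Fabp4, the fatty acid carrier of adipocytes and macrophages, rose 4.61-fold (2.20 ± 0.50, adjusted p = 0.0498), from 6.71 to 7.50 on chow to 8.84 to 9.65 on HFD. It did not pass with sex in the fit (adjusted p = 0.168) and passed in 1 of the 6 fits that left out a control array. It was the 1 adipocyte marker of 8 to rise, and none fell, against 0.523% and 0.361% of all genes. Adipoq, the adipocyte hormone, was the lowest of those markers with a difference of -0.01. Cholesterol synthesis genes had a median of -0.26, with none of 19 passing (4 lower at an unadjusted p under 0.05, against 8.58% of all genes).

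Of 30 nuclear-encoded subunits of the respiratory chain and ATP synthase 2 rose (against 0.523% of all genes) and none fell. A difference above 0 was found in 29, against 50.9% of all genes, and the median was 0.246. Ndufa4 read 8.27, 8.37 and 8.30 on chow and 8.93, 8.96 and 9.18 on HFD (0.71 ± 0.11, adjusted p = 0.00928), and Cox7a2 10.27, 10.37 and 10.33 against 10.73, 10.86 and 11.05 (0.56 ± 0.12, adjusted p = 0.0407). Both encode small subunits linked to cytochrome oxidase, and both groups were tight and apart. At an unadjusted p under 0.05, 13 of the 30 were higher and none lower, against 7.28% and 8.58% of all genes. Small subunits outside the list, Uqcr11 (0.73), Ndufb7 (0.68), Ndufa13 (0.53), Cox6b1 (0.63) and Atp5e (0.81), were also among the 116 and were named after their values were seen. HFD control 3 was the highest array for each of these 7 genes. The list's mean was 8.22, 8.38 and 8.39 on chow and 8.51, 8.56 and 8.76 on HFD. Ndufa4 passed whichever control array was left out and with sex in the fit, and Cox7a2 did not pass with sex. With only the 6 arrays compared, or the female arrays alone, 0 of the 30 passed.

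Nuclear long noncoding RNAs were among the genes that fell. Neat1, the scaffold of nuclear paraspeckles, read 8.03, 7.58 and 8.08 on chow and 6.24, 5.95 and 6.23 on HFD, a log2 fall (-1.76 ± 0.23, adjusted p = 0.0024). Malat1, a nuclear speckle RNA encoded near Neat1, read 11.84, 10.46 and 10.71 on chow and 9.95, 9.73 and 9.69 on HFD (-1.22 ± 0.25, adjusted p = 0.0316), and its other probe set differed by -1.18 (adjusted p = 0.0395). Chaserr, a noncoding RNA encoded next to the chromatin remodeller gene Chd2, fell from 7.68, 6.71 and 6.49 to 5.47, 5.90 and 5.80 (-1.23 ± 0.27, adjusted p = 0.0427). The groups lay apart in all 3, and chow control 1 was the highest array for Malat1 and Chaserr. Chd2 itself, named after its values were seen, fell by 0.84 ± 0.18 (adjusted p = 0.038). Neat1 passed whichever control array was left out and with sex in the fit (-1.80, adjusted p = 0.00939), while Malat1 and Chaserr did not pass with sex (adjusted p = 0.0691 and 0.0757).

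Gtpbp2, a GTPase that acts on stalled ribosomes, was close to level within each diet: it read 7.62, 7.54 and 7.64 on chow and 6.25, 6.45 and 6.34 on HFD (-1.26 ± 0.12, adjusted p = 0.000123), and it too passed whichever array was left out and with sex in the fit. Stc1, the calcium and phosphate regulator stanniocalcin, had the largest fall, 4.49-fold (adjusted p = 0.0491). Its chow values were 6.39, 8.98 and 8.74 and its HFD values 6.20, 6.17 and 5.24, so that chow control 1 was barely above the HFD arrays. Vip, a neuropeptide of islet nerves that promotes insulin release, read 8.69, 8.93 and 8.47 on chow and 7.67, 6.96 and 5.99 on HFD (-1.82 ± 0.41, adjusted p = 0.0491). Plk3, a stress-responsive kinase, fell by 1.55 ± 0.33, from 8.87, 10.42 and 10.27 to 8.26, 8.57 and 8.06 (adjusted p = 0.0415). Nabp1, a single-stranded DNA binding protein, Srgap1, Nup93, a nuclear pore protein, and Stx3, a syntaxin of exocytosis, fell by 1.18, 1.18, 1.15 and 1.14 (adjusted p from 0.0174 to 0.03). Tmem108 and Ccdc162 fell by 1.47 and 1.16 (adjusted p = 0.00928 and 0.0249), but their other probe sets differed by -0.12 and -0.26 and did not pass, and the HFD mean of Ccdc162 was under all 6 array medians. Of the 15 largest falls, Neat1, Gtpbp2 and Tmem108 passed with sex in the fit. In the 6 fits that left out a control array, Neat1 and Gtpbp2 passed in all and Tmem108 in 5. Ccdc162 and Nup93 passed in 3 of them, and Malat1 and Nabp1 in 2. Stc1, Vip, Plk3, Chaserr, Srgap1 and Stx3, and Jun and Sesn2 described below, passed in 1.

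**Figure D3:**
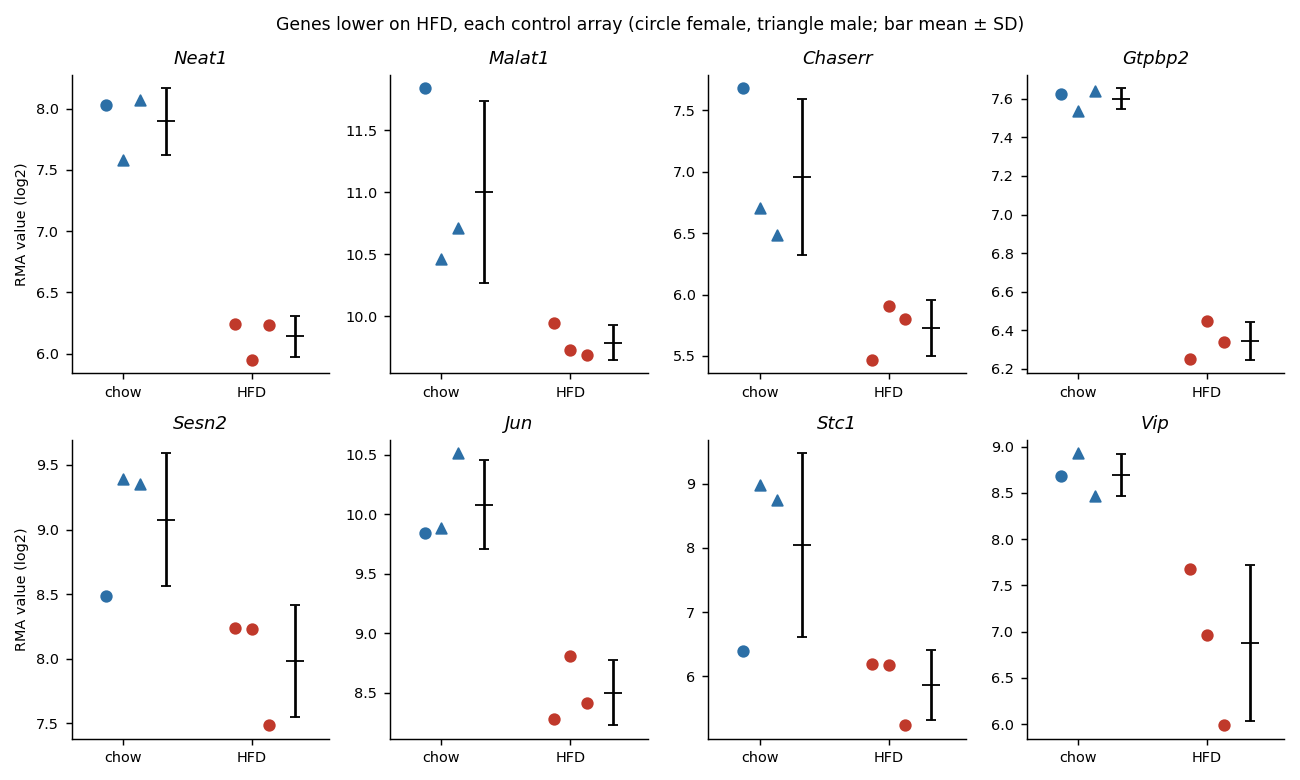
RMA values on the log2 scale (y axis) of 8 genes that fell, in the 3 chow and 3 HFD control arrays from number 1 on the left to number 3; circles read as female, triangles as male, and the black bar is the mean ± SD of 3 arrays. The groups do not overlap in any panel, and for Sesn2 and Stc1 chow control 1 is the chow array closest to the HFD arrays.

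Among stress and immediate early genes, Jun and Sesn2 fell. Jun, a subunit of the transcription factor AP-1, read 9.84, 9.89 and 10.51 on chow and 8.28, 8.81 and 8.42 on HFD (-1.58 ± 0.30, adjusted p = 0.0238). It was the 1 gene to fall among 23 immediate early genes, against 0.361% of all genes, and none of the 23 rose. The list's median was -0.722. At an unadjusted p under 0.05, 8 of them were lower and 1 higher, against 8.58% and 7.28% of all genes. Fosb had the lowest difference of the list, -1.97 ± 0.99 (adjusted p = 0.35), and Fos differed by -0.74 ± 0.64. Sesn2, a stress-induced inhibitor of the growth kinase mTORC1, read 8.49, 9.39 and 9.35 on chow and 8.24, 8.23 and 7.49 on HFD (-1.09 ± 0.23, adjusted p = 0.0401). It was the 1 gene to fall among 24 genes of the integrated stress response, against 0.361% of all genes. That list had a median of -0.386, and 11 of its genes were lower at an unadjusted p under 0.05, against 8.58% of all genes. Atf4, the transcription factor at the centre of that response, differed by -0.74 ± 0.18 (adjusted p = 0.0631) and its targets Trib3 and Ddit3 by -1.58 ± 0.43 and -1.31 ± 0.45 (adjusted p = 0.0913 and 0.173). Jun and Sesn2 did not pass with sex in the fit (adjusted p = 0.0961 and 0.147).

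These lists divided the chow controls. The mean of the integrated stress response genes was 7.70 in chow control 1, the female array, and 8.90 and 9.27 in chow controls 2 and 3, while the HFD controls read 7.96, 8.19 and 8.22. The mean of the immediate early genes was 7.10, 7.93 and 7.90 on chow and 6.90, 7.22 and 6.77 on HFD. Without chow control 1, 10 integrated stress response genes and 6 immediate early genes fell, and without any 1 of the other 5 control arrays none did. The falls over all 22180 genes moved with that array too, from 80 with every array to 432 without chow control 1. They were 42, 20 and 13 without HFD controls 1, 2 and 3, and 6 and 20 without chow controls 2 and 3. The part of sex and of this array in these differences was not tested.

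Other regulatory lists gave no call in control islets. Of 17 clock genes none passed (limma; 1 higher and 7 lower at an unadjusted p under 0.05, against 7.28% and 8.58% of all genes, which hold for the next lists too), with a median of -0.343. Ciart, a clock repressor, had the lowest difference (-1.28 ± 0.40, adjusted p = 0.137) and Arntl, the activator BMAL1, the highest (0.94 ± 0.41, adjusted p = 0.283). Ciart and Arntl of chow control 1 (6.25 and 7.40) lay among the HFD values and not with the other chow controls (7.66 to 7.84 and 5.85 to 5.94). Of 17 NF-kB components and feedback genes none passed and 6 were lower at an unadjusted p under 0.05 (median -0.327), with Bcl3, a nuclear I-kappa-B protein, the lowest at -1.29 ± 0.34 (adjusted p = 0.0796). None of 24 interferon-stimulated genes passed (1 higher and 7 lower at an unadjusted p under 0.05; median -0.207), and the lowest, Ifit1, differed by -1.39 ± 0.52 (adjusted p = 0.201). Cdkn1a, the cell cycle inhibitor p21, read 9.26, 10.72 and 10.86 on chow and 9.18, 9.04 and 8.70 on HFD, just missing the threshold (-1.31 ± 0.30, adjusted p = 0.0514).

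**Figure D4:**
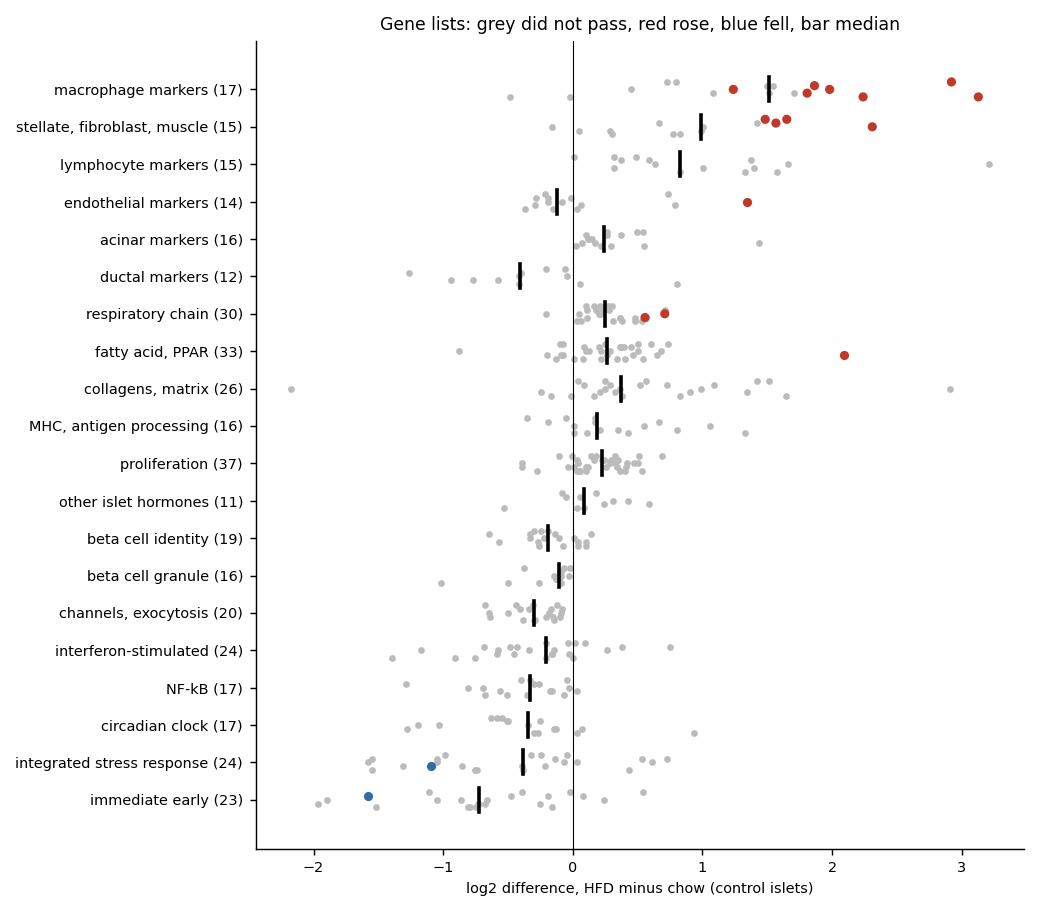
Each row is a gene list with its number of measured genes in parentheses, and each point is 1 gene at its log2 difference between HFD and chow control islets (x axis); red points rose, blue points fell, grey points did not pass, and the black bar is the median. The macrophage list has 7 red points and a median of 1.51, and the beta cell granule list has none and a median of -0.103.

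No gene of the beta cell lists passed. Ins2 read 11.88, 12.07 and 11.84 on chow and 11.86, 11.92 and 11.74 on HFD (-0.09 ± 0.17, adjusted p = 0.86), and the groups overlapped. Gcg, Sst and Ppy (pancreatic polypeptide) differed by 0.03, 0.08 and -0.05, with SEs of 0.10 to 0.15. Among 16 granule genes 2 were lower at an unadjusted p under 0.05 (8.58% of all genes were), and all 16 had a difference below 0 (49.1% of all genes did), with a median of -0.103. The lowest of them was Vgf, a granule protein (-1.01 ± 0.29, adjusted p = 0.0975), while Iapp, the peptide amylin released with insulin, differed by -0.13 ± 0.09. Of 19 identity and glucose-sensing genes 1 was lower at an unadjusted p under 0.05 (median -0.193). The transcription factors Pdx1 and Mafa differed by -0.26 ± 0.25 and -0.27 ± 0.34 (adjusted p = 0.668 and 0.765), and the incretin receptor Gipr, the lowest, by -0.65 ± 0.42. Channel and exocytosis genes had a median of -0.298 with all 20 below 0 (49.1% of all genes), and 2 were lower at an unadjusted p under 0.05 (8.58%). Among them were the subunits of the KATP channel, Kcnj11 (-0.38 ± 0.23) and Abcc8 (-0.16 ± 0.28), and Doc2b, a calcium sensor of exocytosis, was the lowest (-0.68 ± 0.21, adjusted p = 0.118).

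No proliferation gene passed (0 of 37 by limma, and 0 at an unadjusted p under 0.05). Of these, 31 had a difference above 0 (50.9% of all genes), and the median was 0.226. Cdk1, the mitotic kinase, was the highest at 0.69 ± 0.37 (adjusted p = 0.387), and Mki67 differed by 0.36 ± 0.49 (adjusted p = 0.778). Mki67 read 5.56, 5.49 and 5.27 on chow and 5.89, 6.28 and 5.24 on HFD, so that the groups overlapped.

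The same diet contrast was then read in the knockouts, whose arrays took no part in choosing the 196 genes except through the pooled spread. In TRAF2 knockout islets all 116 genes that rose in controls had a difference above 0 (against 52.2% of all genes), with a median of 1.40 against 1.41 in the controls, and 76 rose there (against 0.884% of all genes). Of the 80 genes that fell in controls, 79 had a difference below 0 (47.8% of all genes), with a median of -0.655 against -0.821, and 39 fell there (1.08% of all genes). Retnla differed by 5.46 ± 0.41 (adjusted p = 5.52e-06), Cbr2 by 3.60 ± 0.25 (adjusted p = 5.41e-06), Acta2 by 3.52 ± 0.39 (adjusted p = 0.00027), Gtpbp2 by -1.29 ± 0.12 (adjusted p = 5.23e-05) and Neat1 by -2.35 ± 0.23 (adjusted p = 6.44e-05). The test of the difference between the TRAF2 knockout and control diet contrasts passed for 0 of 22180 genes (limma; 628 at an unadjusted p under 0.05). The macrophage list had 6 rises and a median of 0.787 there. The mean of its markers was 6.86, 5.75 and 5.73 in chow TRAF2 knockouts 1 to 3 and 7.20, 7.20 and 7.21 on HFD, so chow knockout 1 stood well above the other chow arrays. Of all genes, 435 (1.96%) passed in this knockout, and 218, 149, 123 and 127 without HFD knockout 1, 2, 3 and chow knockout 3.

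In TRAF3 knockout islets, of the 116 genes, 68 had a difference above 0 (53.2% of all genes), the median was 0.158, 8 rose (2.66% of all genes) and 4 fell. Of the 80 genes, 32 had a difference below 0 (46.8% of all genes), the median was 0.0739, 5 fell (6.01% of all genes) and 10 rose. Retnla differed by -0.60 ± 0.41 (adjusted p = 0.444) and Adgre1 by -0.08 ± 0.33 (adjusted p = 0.931), and Cd36 fell by 1.40 ± 0.37 (adjusted p = 0.0297). Hpgd and Cbr2 rose there too, by 1.33 ± 0.27 and 1.18 ± 0.25 (adjusted p = 0.00746 and 0.0107), and Nup93 fell by 0.98 ± 0.20 (adjusted p = 0.00746). Jun rose by 1.81 ± 0.30 (adjusted p = 0.00244). The macrophage list had 0 rises and 2 falls, with a median of 0.0945. The mean of its 17 markers was 6.19 to 6.50 on chow in this knockout, against 5.51 to 5.68 in chow controls, and 5.65 to 6.65 on HFD. The knockout groups each held 1 female and 2 male arrays on chow and 2 female and 1 male on HFD.

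The test of the difference between the TRAF3 knockout and control diet contrasts passed for 1287 genes (5.8% of all; 2.52% higher and 3.29% lower in the knockout), and for 54 of the 116 and 55 of the 80. It contains the control contrast that chose these genes, so their share is a description. It passed for Retnla (-4.96 ± 0.57, adjusted p = 0.00129), Folr2 (-3.95 ± 0.64, adjusted p = 0.00585), Cd36 (-3.49 ± 0.53, adjusted p = 0.00535) and Jun (3.39 ± 0.42, adjusted p = 0.00241). It did not pass for Acta2 (-1.68 ± 0.56, adjusted p = 0.0873), Csf1r (-1.16 ± 0.47, adjusted p = 0.166) or Hpgd (-1.29 ± 0.38, adjusted p = 0.0578). The count was 681 and 1963 without HFD TRAF3 knockout 2 and 3, 614 and 414 without chow TRAF3 knockout 1 and 3, 851 and 730 without HFD control 2 and 3, and 714 without chow control 2. The 1923 genes (8.67%) that passed in the TRAF3 knockout alone became 1228 and 877 without its HFD arrays 1 and 2 and 902 and 618 without its chow arrays 1 and 3.

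**Figure D5:**
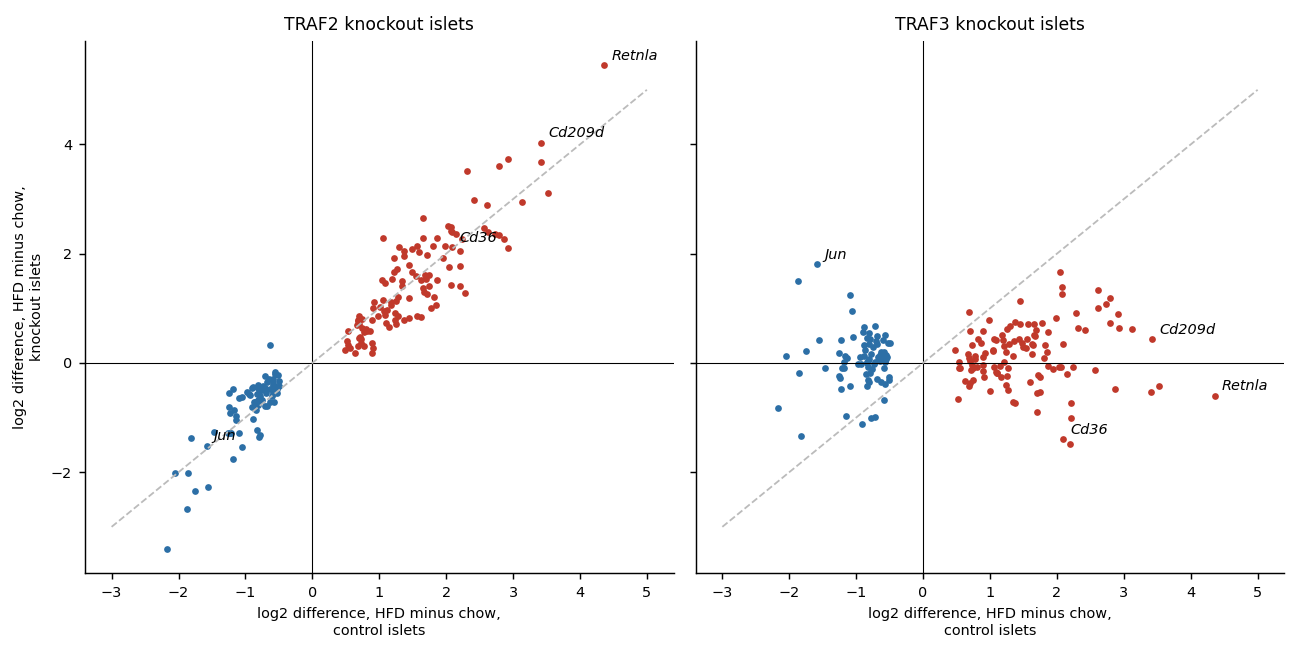
The 196 genes that passed in control islets, with their log2 difference between HFD and chow in controls (x axis) and in TRAF2 knockout (left) or TRAF3 knockout islets (right, y axis); red rose and blue fell in controls, and the dashed line marks equal differences. In the TRAF2 knockout the 116 red points all lie above 0, and in the TRAF3 knockout 68 do.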

How the data were processed

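Labelled RNA (Ambion WT kit, 250 ng, biotin) was hybridised to Affymetrix arrays. The values are the authors' deposited log2 values per probe set, made with RMA per the submitters' processing notes, which also name limma; versions and genome build are not given in the sources used here, nor whether all arrays were normalized together. They were used as deposited. Of 41345 probe sets, 23521 had exactly 1 symbol in GEO's platform annotation, 1814 several and 16010 none. For genes with several probe sets (1082) the one with the highest mean over 18 arrays was kept, leaving 22180 genes, with no filter on level.

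limma 3.58.1 in R 4.3.3 fitted 6 group means to 18 arrays (12 residual and 3.69 prior degrees of freedom). Tests were two-sided, with p adjusted (Benjamini-Hochberg, over all genes) and passed under 0.05. SE is limma's moderated standard error, SD that of 3 arrays. The fit was tested on simulated data. Sex was read from Xist against Eif2s3y, Kdm5d and Uty. Of the 720 different genes in 39 lists, 654 were measured. Members and lists were chosen with earlier results of these data known, so list counts set against all genes are descriptions only. Genes were named by rule: the 15 largest rises and falls that passed, the 5 largest differences in each direction between a knockout's and the controls' diet contrast, up to 4 passing members per list or else its first 2 and its lowest and highest, hormones and sex-linked genes; placeholder symbols were not named, and small exceptions are marked in the text or were taken from lists after values were seen. In 8 of the 41 named genes that passed, the lower group mean lay below every array's median. RefSeq promoter windows were matched by symbol. TRAF3 transcript levels are not reported here. The number of arrays limits the precision. Alternatives were centring, repeated quantile normalization, trend and robust, dim genes left out (11090 kept), every probe set, only the arrays compared, replicate block, sex, female arrays alone, acinar and ductal scores, and leaving out each array; a macrophage score was added after seeing the data.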

Additional observations from a re-analysis of the deposited data

Results flagged for a closer look

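The diet contrast differed between TRAF3 knockout and control islets for 1287 genes (5.8% of all), by the test of the difference itself (limma, adjusted p under 0.05). Of these, 49 were among the genes named by rule. The rule took in the 5 largest differences in each direction from this same test, so the 49 are a description only. Values are the log2 difference of the differences, knockout minus control. Of the 49, 25 had also passed in the control contrast, which the test contains. Among these it was lower in the TRAF3 knockout for Retnla by -4.955, Lyz1 by -3.95, Folr2 by -3.948, Fabp4 by -3.679, Cd36 by -3.486, Clec4a3 by -3.347, Cd209d by -2.988, Mrc1 by -2.503, Adgre1 by -2.317, F13a1 by -2.285, Cldn5 by -2.059, Cbr2 by -1.613, Myh11 by -1.313, Ndufa4 by -0.8436 and Cox7a2 by -0.6433. It was higher for Jun by 3.388, Neat1 by 1.975, Plk3 by 1.97, Chaserr by 1.653, Tmem108 by 1.375, Ccdc162 by 1.288, Stx3 by 1.224, Srgap1 by 1.202, Nabp1 by 1.083 and Gtpbp2 by 1.018.

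The other 24 had not passed in controls. Among these the difference was lower in the knockout for Ms4a6d by -5.254, Gpnmb by -4.892, Pf4 by -4.862, Ifi204 by -4.851, Irf7 by -4.381, Ccl5 by -3.365, Ccl2 by -2.882, Ifi27 by -2.853, Ldha by -1.705 and H2-K1 by -0.9045. It was higher for Fosb by 6.971, Npas4 by 6.447, Tph1 by 4.615, Rsph4a by 4.604, Atf3 by 4.403, Hspa1a by 2.487, Ciart by 2.264, Mafa by 2.234, Slc30a8 by 1.638, Pdx1 by 1.375, Ghrl by 1.362, Elovl6 by 1.148, Doc2b by 1.076 and Hspa5 by 0.9361.

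Probe sets without a gene symbol also carried a diet difference in control islets: 43 of 16010 passed, 11 higher and 32 lower.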

How the results depend on the processing

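The 196 genes became 487 with arrays centred, 306 with dim genes left out, 78 with only the 6 arrays compared, 27 with sex, 55 with female arrays alone, 339 and 1311 with an acinar or ductal score, 1394 with a macrophage score (chosen after seeing the data; 79 of the 196 kept), and 19 to 603 with 1 array left out. In the TRAF2 knockout 435 became 685 (centred), 74 (female arrays), 851 (acinar), 756 (ductal) and 123 to 520 with 1 array left out. In the TRAF3 knockout 1923 became 608 (only its arrays), 125 (female arrays), 819 (ductal) and 618 to 2466. The 0 genes with a different diet contrast in the TRAF2 knockout became 15 with female arrays and stayed 0 with any 1 array left out. The 1287 of the TRAF3 knockout became 144 with female arrays and 414 to 1963. With the macrophage score, Lyz2 and Wfdc17 turned to -0.124 and -0.195. That score was the mean of the 17 macrophage markers, of which 7 were among the 196. Lyz2 is itself such a marker, so part of its change was built in. The cause of these changes was not tested. Samples of the same replicate number had correlations of deviations of 0.164, 0.0972 and 0.383. HFD 1 and 3 correlated best with chow 1 and 3, but HFD 2 with chow 1 (0.214). These few values cannot settle whether the numbers pair the samples, and the main fit did not pair them. The replicate block gave 189 genes, of which 156 were among the 196. Dim genes bound the size of a change only loosely.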

Other observations

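Some genes with a large difference between the TRAF3 knockout and control diet contrasts had not passed in the controls alone. Fosb and Npas4, immediate early genes of excitable cells, were lower on HFD in controls (-1.97 and -1.90, adjusted p = 0.35 and 0.225) and rose by 5.01 and 4.55 in the TRAF3 knockout (adjusted p = 0.00666 and 0.00213), a difference of 6.97 ± 1.40 and 6.45 ± 1.05 (adjusted p = 0.013 and 0.00585). Pf4, a chemokine of platelets and macrophages, read 4.97 to 5.30 on chow and 7.16 to 7.98 on HFD in controls (2.51 ± 0.57, adjusted p = 0.0514) and fell by 2.35 in the TRAF3 knockout (adjusted p = 0.0194). Ms4a6d, a membrane protein of myeloid cells, had a control difference of 1.69 ± 0.72 and fell by 3.56 in that knockout (adjusted p = 0.0076).

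Tph1, the enzyme of serotonin synthesis that lactogens induce in islets, read 8.30 in chow control 3 and 4.15 and 4.12 in the other chow controls, against 3.76 to 4.55 on HFD.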
